A study of Bos taurus with 6 samples.

Results

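The insulin-like growth factor (IGF) system was examined in longissimus thoracis (LT) muscle of Korean cattle steers with a high or a low number of fine marbling particles (NFMP). The 10 genes examined were the ligands IGF1 and IGF2, the receptors IGF1R and IGF2R, and the binding proteins IGFBP2, IGFBP3, IGFBP4, IGFBP5, IGFBP6 and IGFBP7, chosen by symbol from 23015 rows of raw read counts. A row with the symbol was found for 9 of them, and all 9 passed the filter on low counts, among 15039 rows tested. IGFBP2 was not analysed here. The comparison asks whether the transcripts of this growth factor system differ with the number of small fat flecks in the muscle.

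Each group held 3 Hanwoo steers, reared conventionally on commercial feed, with 1 library of total RNA per steer. The high-NFMP steers were 3-8, 10-8 and 10-9, aged 32.5, 33.8 and 34.5 months. The low-NFMP steers were 3-1, 3-3 and 10-16, aged 37.8, 33.7 and 35.4 months. The steers were assigned by image analysis of the carcass, and since the labels hold no marbling score for a steer, NFMP and total marbling cannot be told apart here. The samples were whole muscle, which also holds fat, connective tissue and vessels, and fewer cells of a type and less RNA per cell cannot be told apart in such samples.

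IGF1 and IGF2 are small secreted peptides that promote growth. Both act through IGF1R, a receptor tyrosine kinase related to the insulin receptor, whereas IGF2R carries IGF2 into lysosomes, where it is degraded, and so works as a clearance receptor. The IGFBPs bind the ligands outside the cell and can hold them back or deliver them to receptors. In muscle, locally made IGFs are known for roles in myoblast differentiation and fibre growth, and IGF signalling is also known to promote the differentiation of preadipocytes.

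The libraries held between 16283873 and 17192750 counts, with TMM factors between 0.915 and 1.083, and the log2 counts of any 2 libraries had a Pearson correlation between 0.946 and 0.966. Mitochondrial genes took between 16.4% and 19.8% of the counts in the high-NFMP libraries and between 12.5% and 15.1% in the low-NFMP libraries, without overlap, and the part of this difference in the results below was not tested. The values below are normalized counts, that is, counts brought to a common effective library size of 16799000, the mean of the 6. Counts were not divided by transcript length, so levels are compared between steers for each gene and not between genes. Fast fibre markers (MYH1, MYH2, MYLPF and 4 more) summed to between 18628 and 27690.0 CPM (edgeR's library-size-scaled counts), and none of these muscle markers was absent.

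None of the 9 members passed the threshold of the study, which asks for an unadjusted p under 0.05 together with more than a 2-fold change, by edgeR's quasi-likelihood test (3.9% of all tested rows did, 2.53% upwards and 1.36% downwards), and none did by DESeq2 or by limma after quantile normalization. None had an adjusted p below 0.05 either, against 0.685% of all rows. With the unadjusted p alone, IGF1 and IGF1R were below 0.05, that is 2 of 9 where 11.5% of all rows were (5.73% higher and 5.74% lower), and DESeq2 and limma also gave 2. Both were higher in the high-NFMP group, by 1.55-fold and 1.51-fold. The fitted difference was above 0 in 6 of the 9 members, against 51.9% of all rows, with a median log2 fold change of 0.20 for the members and 0.02 for all rows. In 3 members, IGF1R, IGF2R and IGFBP6, the groups did not overlap, and this was so in 17.1% of all rows (7.97% higher and 9.16% lower).

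**Figure D1:**
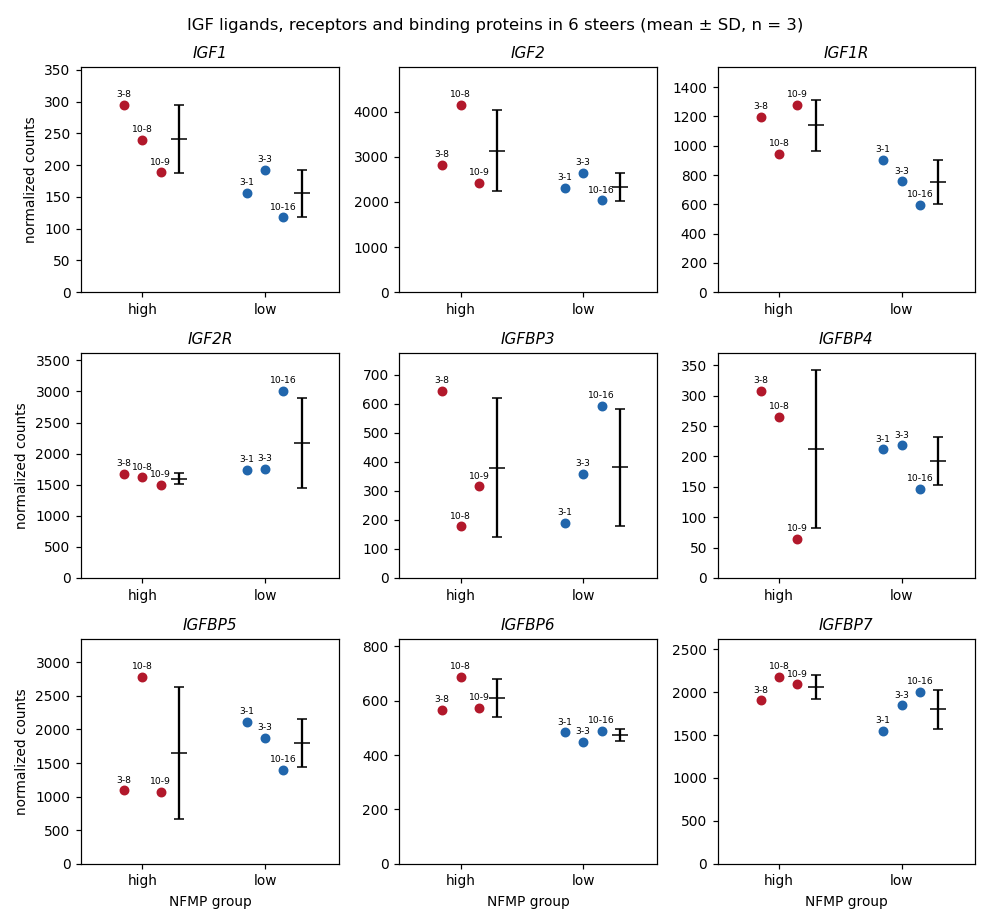
Normalized counts (vertical axis, starting at 0) of the 9 measured IGF genes in the 3 high-NFMP (red) and 3 low-NFMP (blue) steers, each point labelled with its steer, with the mean and SD beside the points. IGF1R and IGFBP6 lie higher and IGF2R lower in all 3 high-NFMP steers, and IGFBP3, IGFBP4 and IGFBP5 scatter widely among the high-NFMP steers.

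IGF1, the ligand whose production in liver and in many other tissues is driven by growth hormone, had 295, 240.0 and 189 normalized counts in the high-NFMP steers 3-8, 10-8 and 10-9. It had 157, 192 and 118 in the low-NFMP steers 3-1, 3-3 and 10-16. The groups overlapped by a narrow margin, since steer 10-9 lay just under steer 3-3. The means were 241 ± 53.2 (SD, n = 3) and 156 ± 37.2 (SD, n = 3), and the log2 fold change was 0.63 (standard error 0.25, 95% interval 0.09 to 1.17, unadjusted p = 0.0261 and adjusted p = 0.357 by edgeR). The ages of the groups overlapped, with the youngest steer in the high-NFMP and the oldest in the low-NFMP group, and with age as a term the log2 fold change was 0.40 with an unadjusted p of 0.240 in edgeR. The unadjusted p in edgeR was 0.113 without steer 3-8, 0.0530 without 3-1 and 0.0972 without 10-16, and it was 0.0635 with library totals in place of TMM factors. Larger log2 fold changes were found, of 0.79 without 10-9 (unadjusted p = 0.00936), 0.81 without 3-3 (unadjusted p = 0.0165) and 0.80 with the label number as a term (unadjusted p = 0.00460), all by edgeR.

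Steer 3-8, in which IGF1 was highest, also held the most adipocyte transcript. The 8 adipocyte markers (ADIPOQ, PLIN1, LEP and 5 more) summed to 566 CPM in steer 3-8, between 208 and 249 in the other two high-NFMP steers and between 192 and 268 in the low-NFMP steers. All 8 had a fitted difference above 0 (51.9% of all rows), with a median log2 fold change of 0.62. An unadjusted p below 0.05 was found for 2 of them (11.5% of all rows). No adipocyte marker was at 0 counts in all libraries. Their part in the IGF1 difference was not tested.

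The long noncoding RNA gene LOC112446717 overlaps IGF1 by the RefSeq genes of ARS-UCD2.0. It held 30, 30 and 20 reads in steers 3-8, 10-8 and 10-9, and 5, 19 and 6 reads in steers 3-1, 3-3 and 10-16. When these counts were taken off those of IGF1, an alternative chosen after the data were seen, the log2 fold change of IGF1 was 0.54 (unadjusted p = 0.0513 by edgeR). Whether the same reads were counted on both genes was not tested.

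IGF2, the ligand made from an imprinted gene and abundant in developing muscle, had 2826, 4148 and 2426 normalized counts in the steers 3-8, 10-8 and 10-9. The low-NFMP steers 3-1, 3-3 and 10-16 had 2312, 2643 and 2034. Only steer 10-8, and by a small margin steer 3-8, lay above all low-NFMP steers. The means were 3134 ± 901 and 2329.7 ± 305 (SD, n = 3 each). The log2 fold change was 0.43 (95% interval -0.03 to 0.89, unadjusted p = 0.0658 by edgeR). Steer 10-8 carried much of this difference, and without it the log2 fold change was 0.20 (unadjusted p = 0.330 by edgeR). H19, the noncoding RNA gene that is imprinted together with IGF2 and is named here after its values were seen, had 1518, 7632 and 6431 normalized counts in the high-NFMP steers, against 2539, 2608 and 2089 in the low-NFMP steers. H19 was thus lowest of all in steer 3-8 and highest in steer 10-8, with an unadjusted p of 0.0863 by edgeR.

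The ratio of IGF1 to IGF2 counts within a library needs no scaling between libraries. Its log2 value was -3.26, -4.11 and -3.69 in the high-NFMP steers, against -3.88, -3.78 and -4.11 in the low-NFMP steers. The groups overlapped, and their means differed by 0.24 (exact permutation test, two-sided, p = 0.5, where 3 steers against 3 can give no p below 0.1). The difference was 0.024 without steer 3-8, 0.14 without steer 10-16 and 0.45 without steer 10-8.

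The genes with the most similar profile were searched among 10867 others with a mean of at least 50 normalized counts, by the Pearson correlation of log2 normalized counts over the 6 libraries, given as a description. For IGF1 these were SLC18B1 (0.989), the complement protease gene C1S (0.988) and ZRANB3 (0.987). For IGF2 they were CCDC32 (0.992), the fibrillar collagen gene COL5A1 (0.989) and RRM1, which encodes a subunit of ribonucleotide reductase (0.981). So wide a search over 6 libraries can by itself turn up correlations this high, which was not tested.

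IGF1R, the signalling receptor for both ligands, had 1197, 943 and 1279 normalized counts in the high-NFMP steers 3-8, 10-8 and 10-9. It had 902, 758 and 597 in the low-NFMP steers 3-1, 3-3 and 10-16. All 3 high-NFMP steers lay above the low-NFMP steers, although 10-8 and 3-1 were close. The means were 1139.7 ± 175 and 752 ± 153 (SD, n = 3 each). The log2 fold change was 0.60 (standard error 0.20, 95% interval 0.17 to 1.03, unadjusted p = 0.0101 and adjusted p = 0.256 by edgeR). It stayed between 0.49 and 0.75 with any steer left out, and the unadjusted p in those edgeR fits lay between 0.00415 and 0.0491. Among the steers whose label begins with 3 the high-NFMP steer was higher by 0.53 on the log2 scale, and among those whose label begins with 10 the difference was 0.88.

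A gene that overlaps IGF1R was also higher in the high-NFMP group. PGPEP1L, a putative peptidase gene that lies partly on IGF1R in ARS-UCD2.0, held 277, 212 and 135 reads in steers 3-8, 10-8 and 10-9, and 22, 78 and 36 reads in steers 3-1, 3-3 and 10-16. It passed the p and fold change threshold (log2 fold change 2.32, adjusted p = 0.0270 by edgeR). With the PGPEP1L counts taken off those of IGF1R, an alternative added after the data were seen, the log2 fold change of IGF1R was 0.38 (standard error 0.22, unadjusted p = 0.108 by edgeR). In that case 904, 637 and 1140 counts were left in the high-NFMP steers, against 921, 741 and 555 in the low-NFMP steers, and the groups overlapped. How many reads, if any, were counted on both genes was not tested.

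IGF2R, the clearance receptor that also sorts lysosomal enzymes, lay on the other side of 0. It had 1673, 1616 and 1497 normalized counts in the high-NFMP steers, against 1743, 1758 and 3012 in the low-NFMP steers, and each high-NFMP steer lay below the low-NFMP steers. Steers 3-1 and 3-3 were near the high-NFMP range, and steer 10-16 stood far above it. The means were 1595 ± 89.6 and 2171 ± 728 (SD, n = 3 each), and the log2 fold change of -0.44 had a standard error of 0.22 (95% interval -0.91 to 0.02, unadjusted p = 0.0605 by edgeR). Without steer 10-16 it was -0.10 (unadjusted p = 0.620 by edgeR), and with library totals in place of TMM factors it was -0.50 (unadjusted p = 0.0295 by edgeR). The unadjusted p in edgeR was also below 0.05 without steer 3-1 (0.0288), without steer 3-3 (0.0336), with the label number as a term (0.0269) and without a filter (0.0317). In all other alternatives the unadjusted p was above 0.05, among them limma (0.183), DESeq2 (0.0645) and edgeR with age as a term (0.0975). Without steer 3-8, 10-8 or 10-9 it lay between 0.0808 and 0.146 in edgeR.

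The ratio of IGF1R to IGF2R counts within a library did not overlap between the groups. It was 0.715, 0.584 and 0.854 in the high-NFMP steers, against 0.518, 0.431 and 0.198 in the low-NFMP steers. The mean log2 ratio was higher by 1.00 in the high-NFMP group (exact permutation test, two-sided, p = 0.1, the smallest p that 3 against 3 allows). The difference was 0.59 without steer 10-16, the lowest, and between 0.87 and 1.28 without any other steer. With the PGPEP1L counts taken off IGF1R, also chosen after the data were seen, the ratio was 0.548, 0.438 and 0.764 in the high-NFMP steers, against 0.505, 0.390 and 0.186 in the low-NFMP steers. The groups then overlapped, since steer 10-8 lay below steer 3-1, and the mean log2 ratio differed by 0.77 (exact permutation test, two-sided, p = 0.2).

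**Figure D2:**
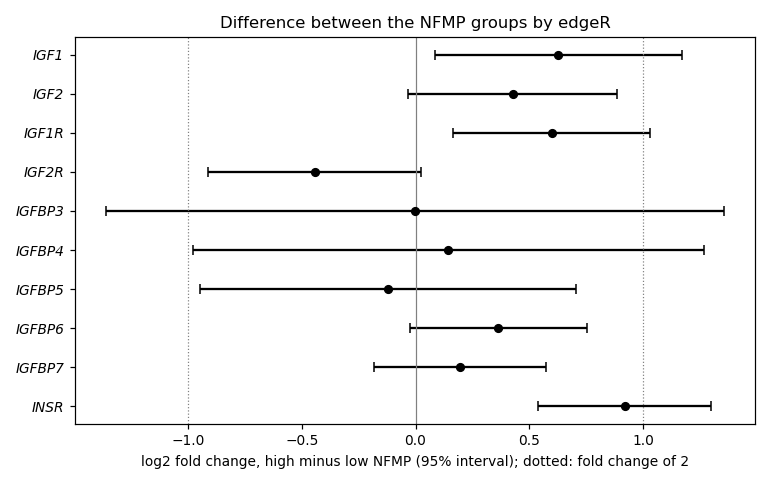
Log2 fold change of high minus low NFMP (horizontal axis, point) with its 95% interval (bar) for the 9 measured IGF genes and the insulin receptor gene INSR, by edgeR. The intervals of IGF1, IGF1R and INSR lie above 0, and that of IGFBP3 runs from -1.36 to 1.36.

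Among the binding proteins, IGFBP6, which binds IGF2 in preference to IGF1, had the narrowest spread within the low-NFMP group, with a coefficient of variation of 4.72%. It had 565, 689 and 574 normalized counts in the high-NFMP steers, against 484, 448 and 489 in the low-NFMP steers. No low-NFMP steer reached the high-NFMP range. The means were 609 ± 69.1 and 474 ± 22.4 (SD, n = 3 each), a 1.29-fold difference (log2 fold change 0.36, 95% interval -0.03 to 0.75, unadjusted p = 0.0651 by edgeR). The log2 fold change lay between 0.30 and 0.42 with any steer left out.

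IGFBP7, a vessel-associated protein that binds IGFs weakly, had 1904, 2183 and 2093 normalized counts in the high-NFMP steers, against 1547, 1848 and 2001 in the low-NFMP steers. The groups overlapped, and the log2 fold change was 0.20 (95% interval -0.18 to 0.58, unadjusted p = 0.289 by edgeR). It was 0.095 without steer 3-1 and 0.31 without steer 10-16. POLR2B, which overlaps IGFBP7 in ARS-UCD2.0, had a mean of 1741 normalized counts in the high-NFMP group and 1663 in the low-NFMP group, and whether the pair shared reads was not tested. The 8 endothelial markers (PECAM1, CDH5, VWF and 5 more) summed to between 168 and 281 CPM in the high-NFMP and between 167 and 198 in the low-NFMP steers. In that list 4 of 8 had a difference above 0 (51.9% of all rows), and 2 of the 8 had an unadjusted p below 0.05 (11.5% of all rows).

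IGFBP3, IGFBP4 and IGFBP5 varied more between steers than between groups. In the high-NFMP group their coefficients of variation were 63.2%, 61.3% and 59.6%, where the median over all tested rows was 22.9%. In the low-NFMP group they were 53.1%, 20.7% and 20.1%, with a median of 18.0% over all rows.

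IGFBP3, the main carrier of IGFs in blood, had 645, 178 and 316 normalized counts in the high-NFMP steers, against 190.4, 359 and 593 in the low-NFMP steers. The 2 groups covered nearly the same range. Their means were 379 ± 239.7 and 381 ± 202 (SD, n = 3 each), and the 95% interval of the log2 fold change, -1.36 to 1.36, was too wide to set aside a 2-fold difference in either direction. Steer 3-8 was 1.30 higher on the log2 scale than the mean of the low-NFMP steers whose label also begins with 3, and steers 10-8 and 10-9 were on average lower than steer 10-16, with a log2 difference of -1.32.

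IGFBP4, which as a rule inhibits IGF action, had 308, 266 and 64.2 normalized counts in the high-NFMP steers, against 211, 218 and 146 in the low-NFMP steers. Steer 10-9 stood apart at 64 reads, with an exact 95% Poisson interval of 49.3 to 81.7 reads, which covers counting error alone. The next lowest library, that of steer 10-16, held 145 reads (122 to 171). The log2 fold change of IGFBP4 was 0.14 (95% interval -0.98 to 1.27, unadjusted p = 0.776 by edgeR). Without steer 10-9 it was 0.59 (unadjusted p = 0.0306 and adjusted p = 0.418 by edgeR).

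IGFBP5, the binding protein made by differentiating myoblasts, had 1092, 2788 and 1075 normalized counts in the high-NFMP steers, against 2109.9, 1878 and 1400.3 in the low-NFMP steers. Steers 3-8 and 10-9 lay below the low-NFMP range and steer 10-8 above it. The log2 fold change was -0.12 (95% interval -0.95 to 0.71, unadjusted p = 0.748 by edgeR). Without steer 10-8 it was -0.70, with an unadjusted p of 0.00730 and an adjusted p of 0.270 by edgeR. Steer 10-8 also had the highest normalized counts of IGF2, IGFBP6 and IGFBP7. Before scaling, its 1964 reads of IGFBP7 were fewer than those of steers 10-9 (2087), 3-3 (1997) and 10-16 (1982). The next values are again for steer 10-8. In the same steer the 8 fibroblast and fibro-adipogenic progenitor markers (PDGFRA, DCN, LUM and 5 more) summed to 1007 CPM, against 825 and 879 in the other two high-NFMP steers and 648 to 827 in the low-NFMP steers. In that list 7 of 8 had a difference above 0 (51.9% of all rows). PDGFRA alone had an unadjusted p below 0.05 by edgeR (11.5% of all rows), with a log2 fold change of -0.51. Their part in these counts was not tested.

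**Figure D3:**
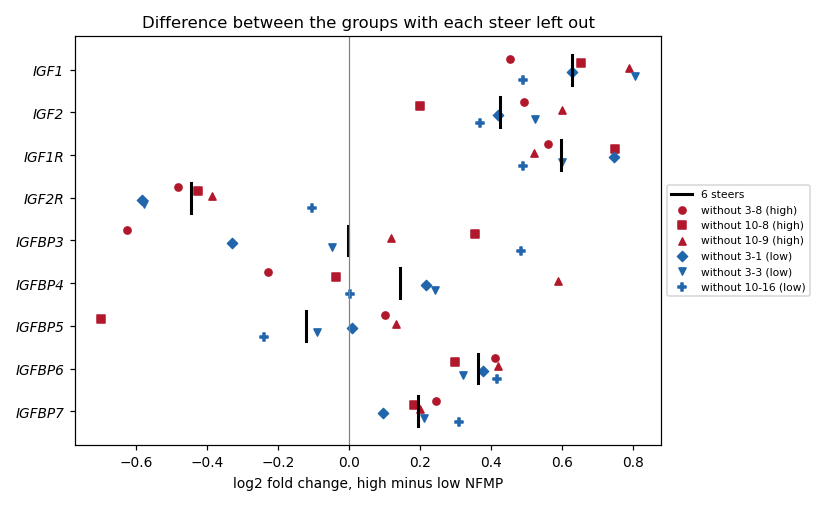
Log2 fold change of high minus low NFMP (horizontal axis) for each measured IGF gene with 6 steers (black bar) and with 1 steer left out (points, red for a high-NFMP and blue for a low-NFMP steer). The points of IGF1, IGF2, IGF1R, IGFBP6 and IGFBP7 stay above 0 and those of IGF2R below it, whereas those of IGFBP3, IGFBP4 and IGFBP5 fall on both sides.

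In the wider pathway, 60 genes were listed, 56 had a row and 49 were tested. IRS2 was higher and CISH was lower past the p and fold change threshold, which is 2 of 49 where 3.9% of all rows passed. CISH passed this p and fold change threshold in each of the 14 alternatives. IRS2, just past the fold change limit, did not pass with library totals (log2 fold change 0.99) or with label number as a term (0.88). Nor did it pass without steer 10-9 (0.85) or without steer 3-3 (0.93). INSR, IRS2 and CISH had an adjusted p below 0.05, which is 3 of 49 against 0.685% of all rows. The lists were chosen with earlier results known, and the study had reported IRS2 and CISH from these libraries, so the shares are no test. The adjusted p of IRS2 was above 0.05 in edgeR whichever steer was left out (0.0541 to 0.269), and with RLE factors or library totals. That of CISH was above 0.05 without 3-8, 10-8, 10-9 or 3-3 (0.0523 to 0.170). Both were above 0.05 in limma and with age or label number as a term. All other settings left each below 0.05.

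INSR, the insulin receptor, can pair with IGF1R in hybrid receptors, and its values under other settings were computed after the data were seen. INSR had 1936, 1772 and 2134 normalized counts in the high-NFMP steers, against 997, 928 and 1163 in the low-NFMP steers, well apart. The means were 1947 ± 181 and 1029 ± 121 (SD, n = 3 each), a 1.89-fold difference (log2 fold change 0.92, standard error 0.18, unadjusted p = 0.000128 and adjusted p = 0.0301 by edgeR), which was not past the 2-fold limit. The log2 fold change lay between 0.85 and 1.05 with any steer left out, and the adjusted p in those edgeR fits lay between 0.0523 and 0.190, so the call at an adjusted p below 0.05 was lost whichever steer was left out. With 6 steers the adjusted p was 0.205 in edgeR with age as a term, 0.198 in limma after quantile normalization, 0.0507 in edgeR with library totals and 0.00058 in DESeq2. The other genes of this list, INSRR, IGFBP1 and IGFBPL1, had at most 8 reads in any library and were not tested.

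Of the 31 genes of IGF1 receptor signalling, 2 were higher and 6 were lower at an unadjusted p below 0.05 by edgeR, against 11.5% of all rows in either direction. The genes of this group other than IRS2 are named after their values were seen. IRS2, an adaptor that couples IGF1R and INSR to phosphatidylinositol 3-kinase, had 523, 679 and 893 normalized counts in the high-NFMP and 340, 277 and 394 in the low-NFMP steers. Its log2 fold change was 1.05, with an adjusted p of 0.0495 by edgeR, and of 0.0541 to 0.269 with a steer left out. Its relative IRS1 had a log2 fold change of 0.40 (unadjusted p = 0.177). GRB10, an adaptor that binds both receptors and dampens their signal, was 1.67-fold higher (1631, 1976 and 1886 against 1315, 972 and 1011 normalized counts, unadjusted p = 0.00133 and adjusted p = 0.103 by edgeR).

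The lower genes included the phosphatidylinositol 3-kinase subunits PIK3CA and PIK3R1, the exchange factor SOS1, and RPTOR and RPS6KB1 of the mTOR branch. Their log2 fold changes lay between -0.60 and -0.41, and none had an adjusted p below 0.05. FOXO1, a transcription factor restrained by AKT and the gene of this list with the most counts, had a log2 fold change of -0.07 (unadjusted p = 0.704). The median log2 fold change of the 31 genes was -0.10, and 12 of them had a difference above 0 (51.9% of all rows).

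None of the 8 tested proteases of IGFBPs and their inhibitors had an unadjusted p below 0.05 by edgeR (11.5% of all rows did). HTRA1, the gene with the most counts among them, had a log2 fold change of -0.05. None of the 4 tested genes of IGF2 transcript control had such a p either. Among these, CTCF, an insulator protein of the IGF2 and H19 locus, had a log2 fold change of 0.10. In the growth hormone axis 2 of the 5 tested genes, CISH and JAK2, were lower at an unadjusted p below 0.05 (5.74% of all rows were), and the log2 fold changes of GHR, STAT5A and STAT5B lay between -0.03 and -0.02. CISH, a feedback inhibitor induced by STAT5, had 43.6, 68.9 and 42.1 normalized counts in the high-NFMP and 175, 229 and 107 in the low-NFMP steers. Its log2 fold change was -1.73, with an adjusted p of 0.0268 by edgeR, and of 0.0281 to 0.170 with a steer left out. GHR, the growth hormone receptor gene, had a log2 fold change of -0.02 (95% interval -0.42 to 0.37).

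**Figure D4:**
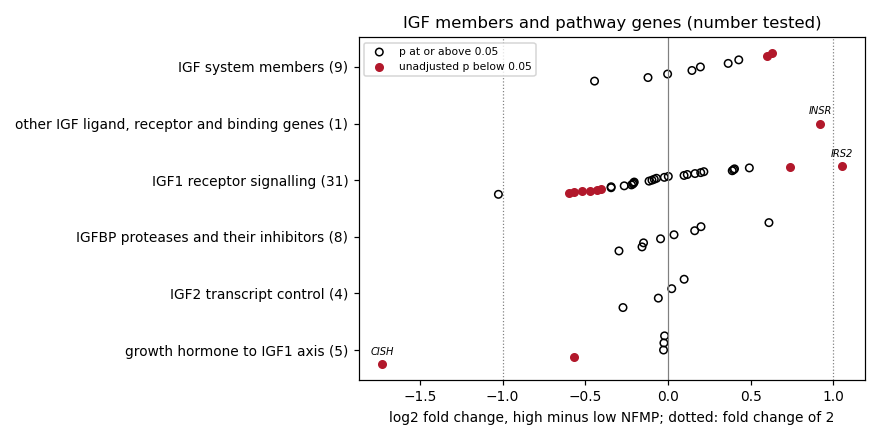
Log2 fold change of high minus low NFMP (horizontal axis) of each tested gene in the IGF members and in 5 pathway lists, with the number tested beside each name and genes with an adjusted p below 0.05 named. Filled points have an unadjusted p below 0.05, and only IRS2 and CISH among the filled points lie beyond the dotted lines of a 2-fold change.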

How the data were processed

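Raw read counts per gene symbol were deposited by the authors for 6 libraries, made with a 3′ mRNA kit of Lexogen. Their methods name Tophat2 with HTSeq in one place and Bowtie2 with unique and multiple alignments in another, and the submitters' processing notes name Bowtie2 and bedtools. Which made the counts, and whether strand was used, is not given in any source used. Because multiple alignments may be counted, related or overlapping genes can share reads.

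Counts were filtered with edgeR 4.0.16 (minimum count 10, minimum total 15) in R 4.3.3, scaled with TMM factors and compared by the quasi-likelihood test, with Benjamini-Hochberg adjustment over 15039 rows. Standard errors and 95% intervals were derived from the F statistic. The biological coefficient of variation was 25.1%. Within-library ratios were compared by an exact permutation test. Nothing in the labels beyond the steer number says that samples of a group differ in origin. The filter, RLE factors, library totals, DESeq2 1.42.0, quantile normalization of log2(count + 1) with limma 3.58.1, label number, age and each steer left out were tried as alternatives. The procedures were tested on simulated data.

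The members and gene lists were chosen with earlier results of these data known. Named were all members, pathway genes past a threshold, and the gene with the most counts in each list. So were the 3 genes most like IGF1 and IGF2, the first 3 detected genes of each marker list, and genes overlapping a member. Further overlapping genes were LOC101907342 (on IGF1R, at most 36 reads), AIRN and LOC112447085 (at most 3 reads), and MIR483 and LOC132343327 (no row). JAK2, STAT5A, STAT5B and the genes described as named after their values were seen fall outside this rule. Overlaps were read from RefSeq genes on ARS-UCD2.0, which is not the build of the study (UMD3.1), so no coordinates are given. All 10 symbols had one entry there. The values of 1 listed signalling gene are not reported here.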

Additional observations from a re-analysis of the deposited data

How the results depend on the processing

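No IGF gene passed the p and fold change threshold, or an adjusted p below 0.05, in any of the 14 alternatives. The number at an unadjusted p below 0.05 was 1 with age as a term and lay between 1 and 5 with a steer left out (5 without steer 10-9, namely IGF1, IGF2, IGF1R, IGFBP4 and IGFBP6, and 1, IGF1R, without steer 10-16), against 2. Of the 128 values of the members under the alternatives, 2 of them chosen after seeing the data, 12 changed sign, all in IGFBP3, IGFBP4 and IGFBP5. IGFBP3 was at 0.0061 with at least 10 counts in every library, at -0.76 with age as a term, and between -0.62 and 0.49 with a steer left out. IGFBP4 was at -0.11 after quantile normalization with limma, at -0.20 with age as a term, and between -0.23 and 0.59 with a steer left out. IGFBP5 was at 0.024 with age as a term, and between -0.70 and 0.13 with a steer left out. The pathway genes past the threshold numbered 1 with library totals alone and with the label number as a term, and 1 to 3 with a steer left out (1 without steer 10-9 or 3-3), against 2, and IRS2 was the gene lost in these 4 cases. Over all genes 969 passed without a filter and 364 with at least 10 counts in every library, against 586, where more and fewer rows were tested. The cause of the other changes was not tested. The receptor ratio and the ligand ratio kept their sign in each of the 8 alternatives run for each of them. No paired analysis was made, because each library came from a different steer and nothing in the labels pairs steers across the groups. The first number of the steer label, whose meaning is not given, was used as a term instead. At 3 steers per group, a 2-fold difference lay within the 95% interval of IGF1, IGF1R, IGFBP3 and IGFBP4.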

Other observations

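Of the satellite cell and myoblast markers (MYF5, MYOD1, MYOG and 1 more with a row), 3 were tested, and MYOG, a factor of myoblast differentiation, was lower past the p and fold change threshold, as were 1.36% of all rows. MYOG had 623, 515 and 607 normalized counts in the high-NFMP steers and 1607, 1599 and 609.8 in the low-NFMP steers (log2 fold change -1.13, unadjusted p = 0.00432 and adjusted p = 0.186 by edgeR). Steer 10-16 lay within the high-NFMP range, so the groups overlapped. MYF5, a marker of satellite cells, was removed by the filter and had 39.5, 28.9 and 10.0 normalized counts in the high-NFMP steers and 6.70, 5.55 and 1.01 in the low-NFMP steers.

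The 6 slow fibre markers (MYH7, MYL2, MYL3 and 3 more) summed to between 7830.1 and 12435 CPM in the high-NFMP and between 8071 and 10722 in the low-NFMP steers, and 1 of them, MYL3, had an unadjusted p below 0.05 by edgeR, with a log2 fold change of -0.78 (11.5% of all rows had such a p). None of the 7 fast fibre markers did, with a median log2 fold change of 0.08. The 6 pericyte and smooth muscle markers (PDGFRB, RGS5, ACTA2 and 3 more) summed to between 97.9 and 135 against 80.2 and 110.4 CPM, and none had an unadjusted p below 0.05. Among the 5 macrophage markers with a row (CD68, CD163, CSF1R and 2 more), 1 did, C1QA, which is named after its values were seen and had a log2 fold change of 0.73 (unadjusted p = 0.0307, again against 11.5% of all rows). The blood markers HBB, HBA and HBA1 were removed by the filter, and the 5 blood markers summed to at most 12.4 CPM in any library.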
